A study of Mus musculus with 6 samples.

Results

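The genes described are 10 that move iron into cells, store it, release it or sense it: Tfrc, Steap3, Slc11a2, Fth1, Ftl1, Ncoa4, Slc40a1, Ireb2, Aco1 and Fbxl5. They were taken by name from the 21881 genes of each of 2 deposited RNA-seq tables, and all 10 were present and tested in both. The cells were mouse leukemia cells of a C57/B6X129SV background, whose driver, AE9a, is a shortened AML1-ETO fusion. By the design text all groups carried Id1 alleles flanked by loxP sites (Id1 fl/fl) together with CreER, which cuts at those sites once 4-hydroxytamoxifen (4-OHT) binds it. The 6 samples formed 3 groups of 2: cells given CBD, which the design text calls an Id1 inhibitor, at 15 µM for 16 h; cells given 4-OHT at 0.1 µM for 48 h; and control cells, for which no vehicle is named. Not given in the sources used here are the promoter of CreER, the number of founding leukemias and whether samples sharing a group came from separate cultures (so that p-values may measure technical spread), and no 4-OHT arm without loxP sites is listed.

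Each table gives 1 FPKM value for the treated group and 1 for control. FPKM scales fragment counts by the length of a transcript and the mapped depth, so levels of different genes can be compared. The 2 tables have different control columns, so that 4 columns bear on every gene. Descriptions in the labels put 1 control sample with each table and both samples of the treated group. Whether that sample alone made the control column is not stated, so treatment and differences between single control samples cannot be told apart. No value of a single library is used here, the depth is unknown, and no SD can be set beside a value. A gene is said to have risen or fallen only where the q-value in the authors' deposited table, adjusted over all genes tested, was under 0.05. Id1 itself stood at 0.741 FPKM with 4-OHT against 15.4 FPKM in its control (in the authors' deposited table q is listed as 0), and at 11.95 FPKM with CBD against 34.15 FPKM in its control (q = 0.133 in the same source). Among blood cell markers, Kit lay between 75.0 and 95.6 FPKM and Spn (CD43) between 99.8 and 196 FPKM in the 4 columns, whereas Ptprc (CD45), a marker of nearly all white blood cells, was at 0.417 FPKM or less and Elane was listed at 0 throughout.

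Cells take up iron bound to transferrin through the transferrin receptor, reduce it in the endosome, and pass it to the cytosol through the transporter DMT1. Iron not used at once is stored in ferritin, a shell of heavy and light chains, from which autophagy through the receptor NCOA4 sets it free; ferroportin is the only known exporter of iron from mammalian cells. The iron regulatory proteins IRP1 and IRP2 bind short hairpins, the iron-responsive elements (IREs), when iron is scarce. Binding in the 3′ UTR keeps the transferrin receptor mRNA from decay, and binding in the 5′ UTR blocks translation of ferritin and ferroportin mRNA. Erythroid precursors and dividing cells are known for high transferrin receptor levels, and macrophages for high ferroportin.

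The hairpins are shown because the mRNAs of Tfrc, both ferritin chains and Slc40a1 all hold them, in different UTRs. The search was for a C, 5 bases, the loop CAGTGN and then 5 bases that pair with those before the loop, G-T pairs allowed, on the transcript strand of the longest protein-coding transcript of each gene in GENCODE vM21 (build GRCm38). It was met in 1.24% of 21877 such transcripts. Tfrc held 4 matches, all in its 3′ UTR, and Fth1, Ftl1 and Slc40a1 held 1 each, all in the 5′ UTR. Each window runs 5′ to 3′ over 30 bases, with the 6 bases of the loop in capitals.
Tfrc 1, chr16:32631219-32631248 (+): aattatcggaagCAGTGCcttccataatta
Tfrc 2, chr16:32631598-32631627 (+): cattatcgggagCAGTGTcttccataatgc
Tfrc 3, chr16:32631663-32631692 (+): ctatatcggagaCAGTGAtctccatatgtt
Tfrc 4, chr16:32631710-32631739 (+): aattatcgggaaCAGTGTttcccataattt
Fth1, chr19:9982732-9982761 (+): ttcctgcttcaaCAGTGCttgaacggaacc
Ftl1, chr7:45459778-45459807 (-): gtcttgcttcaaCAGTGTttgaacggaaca
Slc40a1, chr1:45925464-45925493 (-): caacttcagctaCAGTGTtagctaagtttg
In Slc11a2, Steap3, Ireb2, Aco1, Ncoa4 and Fbxl5 these letters were not met in the transcript searched. RNA levels were measured here, and the translation that 5′ UTR hairpins govern was not.

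Across the 10 genes, 4 changed with CBD, against 26.2% of the 13751 genes tested in that table. Slc40a1 and Ncoa4 rose, against 18.4% of tested genes, and Tfrc and Steap3 fell, against 7.74%. With 4-OHT 6 of the 10 changed, against 44.1% of 11232 tested genes. Ncoa4 rose, against 27.2%, and Slc40a1, Fth1, Ftl1, Slc11a2 and Steap3 fell, against 16.9%. The 4 CBD calls also lay on the same side of the other table's control column, a condition met together with the call by 25.4% of tested genes, or 96.9% of the genes called. Of the 6 4-OHT calls Steap3 alone did so, against 19.8% of tested genes, or 45.0% of the genes called. The median log2 fold of the 10, with a pseudocount of 0.1 FPKM, was 0.065 with CBD and −0.045 with 4-OHT, beside 0.29 and 0.053 over all tested genes and 0.036 and 0.037 over those of at least 1 FPKM in each control column.

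**Figure D1:**
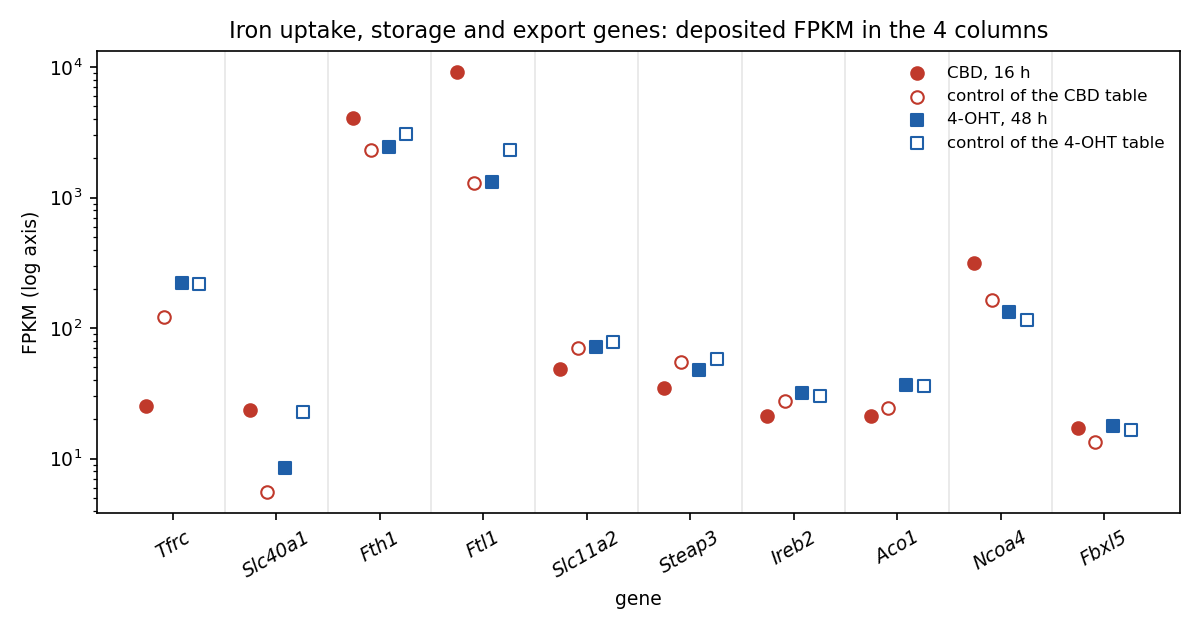
Deposited FPKM (log axis) of the 10 genes in the CBD column, its control, the 4-OHT column and its control, 1 point per column. Tfrc with CBD, at 25.3 FPKM, lies below the other 3 columns, and Ftl1 with CBD, at 9218 FPKM, above them.

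Among the uptake genes, Tfrc had the largest change. Tfrc (chr16:32608982-32632880 in mm9), the receptor for transferrin, stood at 25.3 FPKM with CBD against 123 FPKM in its control, and at 222 FPKM with 4-OHT against 218 FPKM in its control. The CBD value was the lowest of the 4 columns, at 0.116 of the other control column. Tfrc fell with CBD, to 0.206 of its control, a log2 fold of −2.27 (in the authors' deposited table q is listed as 0). Over the other control column the log2 fold was −3.10, which was not tested. With 4-OHT its log2 fold was 0.025 (q = 0.775 in the authors' deposited table), so that no change of Tfrc was called after Id1 deletion. The control columns themselves differed, Tfrc in that of the 4-OHT table being 1.78 times that of the CBD table.

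Steap3 (chr1:122122993-122167659), the endosomal reductase that turns ferric into ferrous iron, stood at 34.6 FPKM with CBD against 55.4 FPKM in its control, and at 48.1 FPKM with 4-OHT against 58.6 FPKM in its control. Steap3 was the only one of the 10 to fall in both comparisons, with log2 folds of −0.68 for CBD (q = 0.0306) and −0.28 for 4-OHT (q = 9.18e-06), both q-values from the authors' deposited table. Both treated columns lay below both control columns, and these control columns were close, at a log2 difference of −0.079. Slc11a2 (chr15:100218331-100253486) encodes DMT1, which carries ferrous iron out of the endosome. It stood at 48.6 FPKM with CBD against 70.5 FPKM in its control, a log2 fold of −0.54 that missed the threshold (q = 0.0700 in the authors' deposited table). With 4-OHT it stood at 72.3 FPKM against 78.3 FPKM in its control, and this smaller fold of −0.11 passed (q = 0.00425 in the authors' deposited table), although 72.3 FPKM is above the 70.5 FPKM of the other control column. All 3 uptake genes thus had their lowest level in the CBD column.

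Ferritin chains were the most abundant of the 10 in every column. Fth1 (chr19:10057193-10059582), the heavy chain with ferroxidase activity, stood at 4079 FPKM with CBD against 2323 FPKM in its control, and at 2457 FPKM with 4-OHT against 3085 FPKM in its control. Ftl1 (chr7:52713314-52715256), the light chain that helps the shell take up iron cores, stood at 9218 FPKM with CBD against 1295 FPKM in its control, and at 1321 FPKM with 4-OHT against 2319 FPKM in its control. Ftl1 ranked 4 among all genes of the CBD column, against 83 in its control, and in the CBD column alone it exceeded Fth1: the ratio of Ftl1 to Fth1 was 2.26 with CBD against 0.558 in its control, and 0.538 with 4-OHT against 0.752 in its control. The sum of both chains made up 1.45% of all FPKM in the CBD column against 0.536% in its control.

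The authors' test did not call either chain changed with CBD, in spite of the size of the Ftl1 difference. For Ftl1 the log2 fold was 2.83 (q = 0.463 in the authors' deposited table) and for Fth1 0.81 (q = 0.533 in the same source). Over the other control column they were 1.99 and 0.40. With 4-OHT both chains fell, Ftl1 with a log2 fold of −0.81 (in the authors' deposited table q is listed as 0) and Fth1 with −0.33 (q = 6.24e-06 in that table). Their 4-OHT levels nevertheless lay just above the control column of the CBD table, with log2 folds over it of 0.029 for Ftl1 and 0.081 for Fth1.

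Reads of Ftl1 are shared with other loci, which makes its level uncertain. Of the 50-base words of its transcript, 78.9% also occur in transcripts of 15 other genes in GENCODE vM21, first among them the retrocopy Ftl1-ps1, against 4.01% for Fth1. A row named Ftl2, which the later RefSeq annotation lists as a pseudogene, followed Ftl1 in every column: Ftl2 stood at 0.456 of the Ftl1 level with CBD against 0.453 in its control, and at 0.470 of it with 4-OHT against 0.463 in its control. With CBD the Ftl2 row had 4202 FPKM against 587 FPKM in its control, a log2 fold of 2.84 that the authors' deposited table does call (q = 0.0208). The same size of difference was therefore called in the row of the copy and not in that of the gene.

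Ncoa4 (chr14:32973078-32992549), the receptor that hands ferritin to autophagosomes, stood at 315 FPKM with CBD against 163 FPKM in its control, and at 132 FPKM with 4-OHT against 115 FPKM in its control. It rose in both comparisons, with a log2 fold of 0.95 for CBD (q = 0.0276) and 0.21 for 4-OHT (q = 5.33e-08), q-values from the authors' deposited table. The CBD level was above both control columns, by a log2 fold of 1.45 over the other one, and the 4-OHT level was below the control of the CBD table, by −0.30. Of its 50-base words 43.1% recur in a processed pseudogene, Gm6768, so that reads may be split here too.

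The exporter Slc40a1 moved in opposite directions in the 2 tables. Slc40a1 (chr1:45964915-45982439), which encodes ferroportin, stood at 23.7 FPKM with CBD against 5.56 FPKM in its control, and at 8.47 FPKM with 4-OHT against 22.6 FPKM in its control. It rose with CBD, with a log2 fold of 2.07 (q = 3.5e-12 in the authors' deposited table) and fell with 4-OHT, with one of −1.41 (in the authors' deposited table q is listed as 0). Of the 10 genes it also had the widest gap between control columns, 4.07-fold with the 4-OHT table higher. Over the other table's control the CBD level had a log2 fold of 0.065, or 1.05 times that column, and the 4-OHT level one of 0.60, or 1.52 times it, so that the direction of the 4-OHT change turned round.

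Genes of the sensors changed in neither comparison. Ireb2 (chr9:54711562-54760341), which encodes IRP2, stood at 21.2 FPKM with CBD against 27.6 FPKM in its control (q = 0.269 in the authors' deposited table), and at 32.1 FPKM with 4-OHT against 30.2 FPKM in its control (q = 0.204 there). Aco1 (chr4:40090298-40146042), which encodes IRP1 and serves as cytosolic aconitase when it holds an iron-sulphur cluster, stood at 21.3 FPKM with CBD against 24.7 FPKM in its control (q = 0.602 in the authors' deposited table), and at 37.0 FPKM with 4-OHT against 35.9 FPKM in its control (q = 0.566 there). Fbxl5 (chr5:44135857-44173388), the iron-binding ligase subunit that marks IRP2 for degradation, stood at 17.1 FPKM with CBD against 13.4 FPKM in its control (q = 0.433 in the authors' deposited table), and at 17.8 FPKM with 4-OHT against 16.6 FPKM in its control (q = 0.179 there). The ratio of Ireb2 to Aco1 was 0.995 with CBD against 1.12 in its control, and 0.867 with 4-OHT against 0.840 in its control. All 3 genes lay between 13.4 and 37.0 FPKM in the 4 columns. A q-value above the threshold does not show that they were unchanged.

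**Figure D2:**
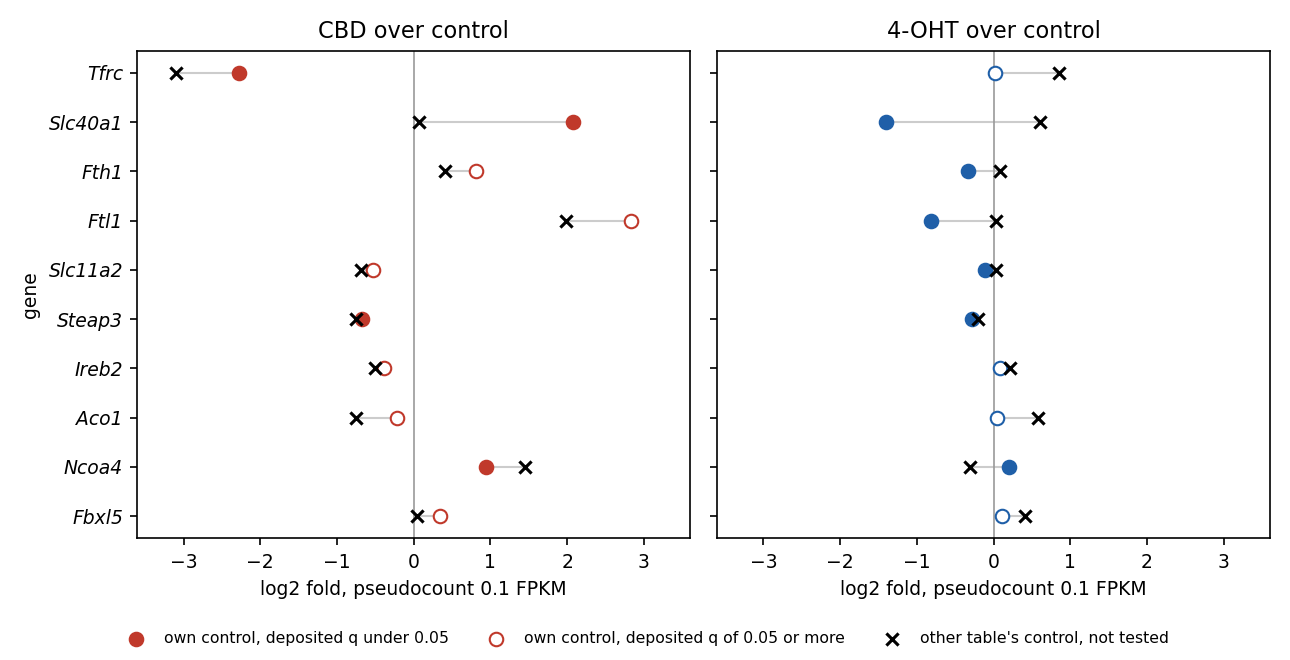
Log2 fold (pseudocount 0.1 FPKM) of each gene with CBD, left, and with 4-OHT, right. Circles are folds over the table's own control, filled where the deposited q is under 0.05, and crosses are untested folds over the other table's control. Crosses and circles lie on the same side of 0 for all 10 genes with CBD, and for Slc40a1, Fth1, Ftl1, Slc11a2 and Ncoa4 with 4-OHT they do not.

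With CBD all 10 genes lay outside the range spanned by the control columns, 5 above it (Slc40a1, Fth1, Ftl1, Ncoa4 and Fbxl5) and 5 below (Tfrc, Steap3, Slc11a2, Ireb2 and Aco1). That is common in the CBD column, where 53.9% of tested genes lay above both control columns and 28.0% below. With 4-OHT 4 of the 10 lay above both (Tfrc, Ireb2, Aco1 and Fbxl5), against 31.1% of tested genes, and Steap3 below both, against 16.2%. Margins over the nearer control were small for several: the CBD level of Fbxl5 was 1.03 times and that of Slc40a1 1.05 times the other control column, and the 4-OHT level of Tfrc was 1.02 times its own control. With columns scaled to the same sum the 4-OHT folds of Tfrc (−0.027) and Aco1 (−0.0080) lay below 0, so that 2 of the 4 were no longer above both. As percentages of the column sum, Slc40a1 (0.00258), Fth1 (0.444) and Fbxl5 (0.00186) with CBD lay below the other control column. Their values there were 0.00335, 0.457 and 0.00245. Of the 5 genes above both with CBD, Ftl1 and Ncoa4 alone then stayed so.

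Set against ferritin and ferroportin within each column, Tfrc was lowest with CBD in all 3 pairs. Fth1 was 161 times Tfrc with CBD against 18.9 times in its control, and Ftl1 was 363 times Tfrc with CBD against 10.5 times in its control. Tfrc stood at 1.07 times Slc40a1 with CBD against 21.7 times in its control, so receptor and exporter mRNA reached similar FPKM in that column. The log2 ratio of Tfrc to Fth1, Ftl1 and Slc40a1 with CBD minus that in its control was −3.09, −5.11 and −4.35. With the other control column in place of its own these differences were −3.51, −5.09 and −3.17. These ratios do not depend on how a column is scaled, and no test of them was possible.

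With 4-OHT the same ratios were shifted the other way and by less. Fth1 was 11.1 times Tfrc with 4-OHT against 14.1 times in its control, and Ftl1 was 5.96 times Tfrc with 4-OHT against 10.6 times in its control. Tfrc was 25.9 times Slc40a1 with 4-OHT against 9.59 times in its control. Differences of the log2 ratio were 0.35, 0.84 and 1.43 for Fth1, Ftl1 and Slc40a1, and 0.77, 0.83 and 0.25 over the other control column. Tfrc with 4-OHT was 1.02 times its control, whereas Fth1 was 0.796, Ftl1 0.570 and Slc40a1 0.374 times theirs.

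**Figure D3:**
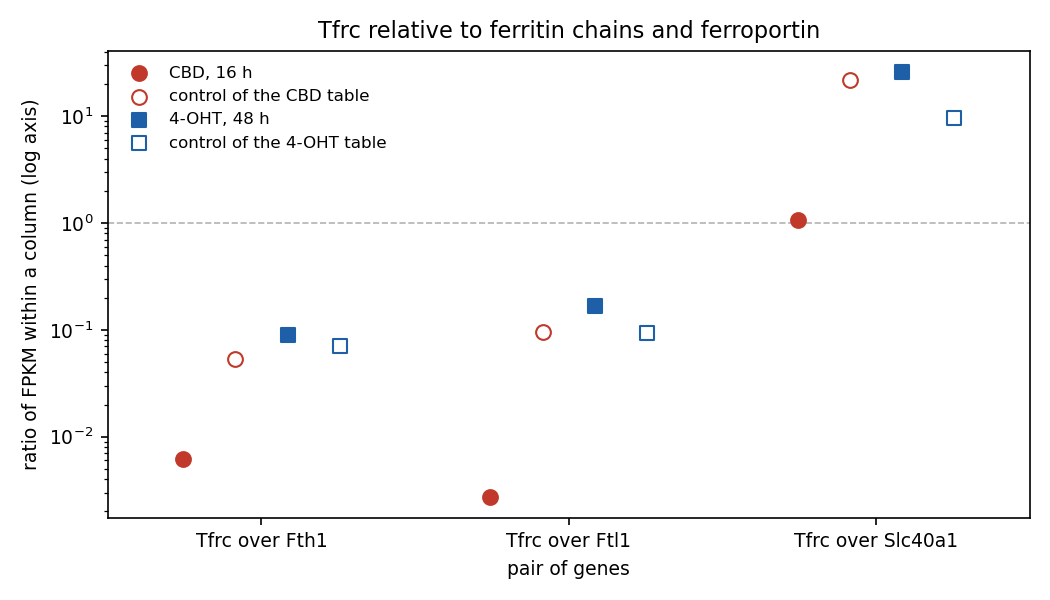
Ratio of Tfrc to Fth1, Ftl1 and Slc40a1 within each column (log axis, 1 point per column), with the dashed line at a ratio of 1. The CBD point is the lowest of the 4 in each pair, at 0.00622, 0.00275 and 1.07.

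Transcript length moved with the folds in the CBD table. Over the 5350 tested genes that reached 10 FPKM in each control column, log2 folds declined with the longest annotated transcript (Spearman rho = −0.414 with CBD and −0.066 with 4-OHT, as a description across genes of the same libraries). The median fold was 0.44 at the length of Ftl1 (968 nt) and −0.25 at that of Tfrc (4890 nt). With that trend removed the CBD log2 folds became −2.02 for Tfrc, 2.39 for Ftl1, 0.68 for Fth1, 2.18 for Slc40a1, 1.20 for Ncoa4 and −0.40 for Steap3, and the difference in the log2 ratio of Tfrc to Ftl1 became −4.42. The fold of Ireb2, the longest at 5770 nt, became −0.022. The sum of FPKM was 918666 in the CBD column against 674548 in its control, a log2 shift of 0.45, and scaling the columns to the same sum lowers every CBD fold by it: Fbxl5 then stands at −0.10, Fth1 at 0.37 and Tfrc at −2.72.

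**Figure D4:**
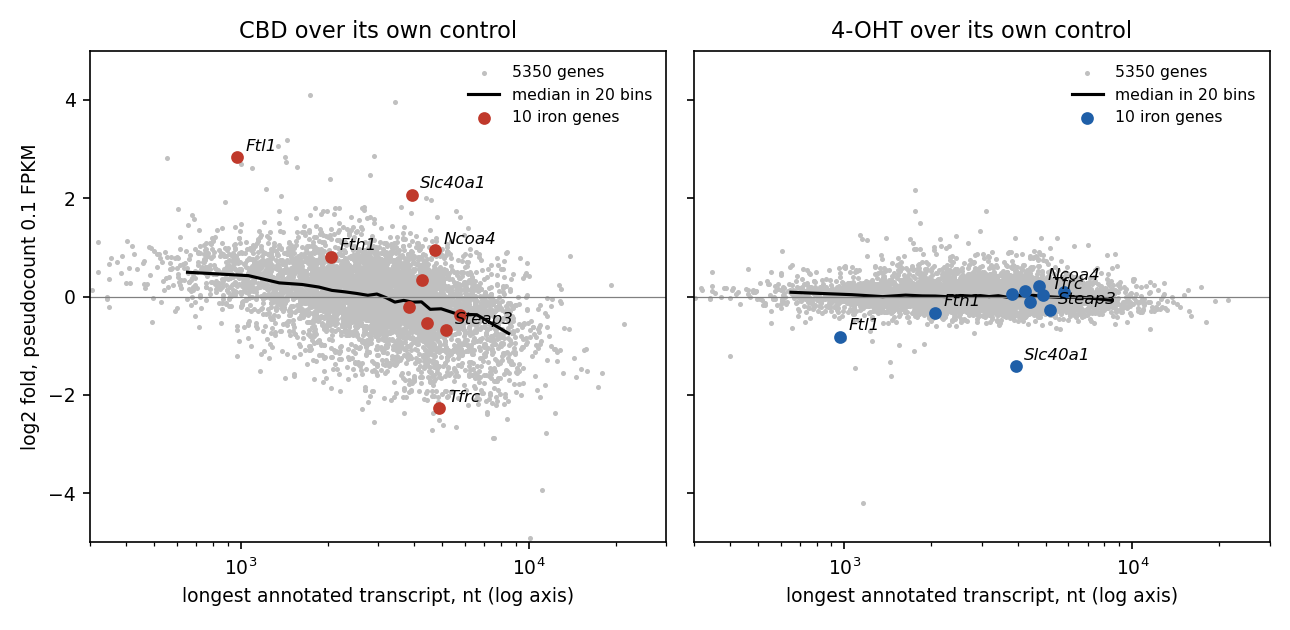
Log2 fold over the table's own control (pseudocount 0.1 FPKM) against the longest annotated transcript in nt (log axis), with CBD left and 4-OHT right. Grey points are tested genes that reached 10 FPKM in each control column (62 lie outside the axes in each panel), the black line is their median in 20 bins of length, and coloured points are the 10 iron genes, of which Tfrc lies below the line with CBD and Ftl1 and Slc40a1 above it.

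Markers of other cells moved in the CBD column as well, where 18.4% of all tested genes rose and 7.74% fell. All 10 neuron markers rose, with summed levels of 131 FPKM with CBD against 1.44 FPKM in its control. Of 10 oligodendrocyte markers 8 rose (251 against 49.1 FPKM summed), and all 10 astrocyte and choroid plexus markers rose (320 against 48.8 FPKM). Mog and Opalin, tested but not called, stood at 7.23 and 3.63 FPKM with CBD and at 0 in both control columns. Of 7 tested macrophage markers 3 rose (18.6 against 1.16 FPKM summed), while Cd5l and Spic, which mark iron-recycling macrophages, were listed at 0 in all 4 columns. C1qb, C1qc and Mertk, tested but not called, stood at 4.845, 3.145 and 0.595 FPKM with CBD and at 0 in both control columns. Cd68, not called either, stood at 1.17 FPKM with CBD against 1.10 FPKM in its control. Of 9 erythroid genes, a class known for high Tfrc, 2 rose and 3 fell with CBD (1730 against 921 FPKM summed, mostly globins whose copies share reads), and 1 rose and 4 fell with 4-OHT (1580 against 1740 FPKM), where 27.2% of all tested genes rose and 16.9% fell. The erythroid share that rose with CBD is thus near that of all genes. Over the table's own control, the share that fell is above that of all genes in both comparisons. Of the erythroid 4-OHT calls that fell, Ank1 alone also lay below the other control column (log2 fold −0.215). Hbb-b2 (1.217), Ermap (0.314) and Rhag (1.265) lay above it. The CBD calls that fell (Ank1, Slc4a1 and Ermap) lay below both control columns, and with the length trend removed their folds stayed negative. Of the CBD calls that rose, Hba-a2 lay above the other control column and Hbb-b2 just below it. The part of cells with these markers in the iron gene levels was not tested. In bulk RNA, fewer cells of a type and less RNA per cell cannot be told apart.

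Other genes of iron handling were taken from 9 lists of 88 genes, of which 83 were in the tables and 5 were not analysed here. Of 71 tested with CBD 10 rose and 4 fell, where 18.4% of all tested genes rose and 7.74% fell. Of 65 tested with 4-OHT 10 rose and 16 fell, where 27.2% of all tested genes rose and 16.9% fell. The count of each list is to be read against the same shares. Their median log2 fold was 0.30 with CBD and −0.047 with 4-OHT. Of the 26 4-OHT calls 8 lay on the same side of the other control column, against 45.0% of all 4-OHT calls, and of the 14 CBD calls 13 did, against 96.9% of all CBD calls. In a list of 19 tested genes for mitochondrial iron import and iron-sulphur cluster assembly, 1 fell and none rose with CBD. It was Slc25a37 (mitoferrin 1, the iron importer of erythroid mitochondria), at 3.15 FPKM with CBD against 9.82 FPKM in its control. With 4-OHT 8 of these 19 fell and 2 rose, Lyrm4 having the lowest log2 fold (−0.59) and Isca2 the highest (0.34). Lyrm4, a partner of the cysteine desulfurase, stood at 12.1 FPKM with 4-OHT against 18.4 FPKM in its control, but above the control of the CBD table. Isca2, a late assembly factor, rose with 4-OHT, to 38.2 FPKM against 30.2 FPKM in its control.

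Among the haem genes Hmox1 had the largest CBD fold. Hmox1, which frees iron from haem, rose with CBD to 205 FPKM against 32.8 FPKM in its control, and to 19.8 FPKM with 4-OHT against 15.9 FPKM in its control. Slc48a1, a haem transporter of endosomes and lysosomes, rose with CBD to 358 FPKM against 142 FPKM in its control and fell with 4-OHT to 145 FPKM against 198 FPKM in its control. In all, 2 of 7 tested haem genes rose and none fell with CBD, against 18.4% and 7.74% of all tested genes. With 4-OHT 3 rose and 2 fell, against 27.2% and 16.9%. Slc46a1, a folate and haem carrier, fell with 4-OHT to 1.65 FPKM against 2.56 FPKM in its control.

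Of 7 tested genes of other uptake routes, 3 rose with CBD and none fell, against 18.4% and 7.74% of all tested genes. Slc39a14 (ZIP14, an importer of iron not bound to transferrin) stood at 2.64 FPKM with CBD against 0.600 FPKM in its control, Cybrd1, a ferric reductase, at 2.45 against 0.557 FPKM, and Mcoln1, a lysosomal channel that passes iron, at 18.3 against 8.98 FPKM. With 4-OHT Hfe, a partner of the transferrin receptor, rose to 2.23 FPKM against 1.28 FPKM in its control, while Cybrd1 fell to 1.27 against 1.76 FPKM and Slc39a8 (ZIP8) to 32.9 against 38.0 FPKM. In the list of hepcidin and export genes 1 of 6 tested rose with CBD, the ferroxidase gene Cp, at 0.711 FPKM against 0.0201 FPKM in its control, which is under the level set for named genes. Neither of the 2 tested with 4-OHT was called by the authors' Cuffdiff test, and 1 of them, Fam132b (erythroferrone), had an unadjusted p under 0.05 (p = 0.0231 in the authors' deposited table).

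Among other transcripts known for IREs, 3 of 5 tested rose with CBD and none fell, against 18.4% and 7.74% of all tested genes. Of 3 tested with 4-OHT the authors' Cuffdiff test called 0, with 0 at an unadjusted p under 0.05. Alas2, the erythroid haem synthesis enzyme, stood at 11.8 FPKM with CBD against 6.34 FPKM in its control, yet at 14.8 FPKM in the other control column. Cdc42bpa, a kinase, stood at 2.82 against 0.152 FPKM and Epas1 (HIF-2 alpha, under the level for named genes) at 1.72 against 0.0291 FPKM. Of 6 genes for iron chaperones and ferritin turnover, 2 fell with CBD: Pcbp2, a chaperone that delivers iron to ferritin, to 271 FPKM against 391 FPKM in its control, and Herc2, a ligase for NCOA4, to 6.16 against 10.7 FPKM. For Herc2, whose transcript has 15261 nt, the log2 fold of −0.79 became −0.034 with the length trend removed, and 0.51 over the other control column with it removed. With 4-OHT Pcbp4 rose to 5.90 against 4.74 FPKM and Tax1bp1 to 49.8 against 44.7 FPKM. Of 11 genes for cytosolic iron-sulphur assembly none passed with CBD in the authors' Cuffdiff test (3 had an unadjusted p under 0.05), and 2 rose and 2 fell with 4-OHT, among them Ndor1 (6.80 against 5.32 FPKM), Mms19 (20.3 against 17.99 FPKM) and Bola2 (225 against 262 FPKM). None of the 3 ligase partners of Fbxl5 was called in either table, and Rbx1 with CBD alone had an unadjusted p under 0.05.

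Of 7 tested transcription factors with iron gene targets, 1 rose and 1 fell with CBD. Nfe2l2 (NRF2), which activates ferritin and ferroportin genes, stood at 43.2 FPKM with CBD against 25.8 FPKM in its control. Myc, for which the Tfrc gene is a known target, stood at 76.8 FPKM with CBD against 93.5 FPKM in its control and fell with 4-OHT too, to 138 against 154 FPKM. Bach1, a repressor of Hmox1 and ferritin genes, fell with 4-OHT to 17.9 against 20.3 FPKM. Of all genes named here from the 9 lists, those called with 4-OHT lay on the other side of the CBD table's control column except Hfe, Isca2 and Bola2, and those called with CBD lay on the same side of the 4-OHT table's control except Alas2.

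**Figure D5:**
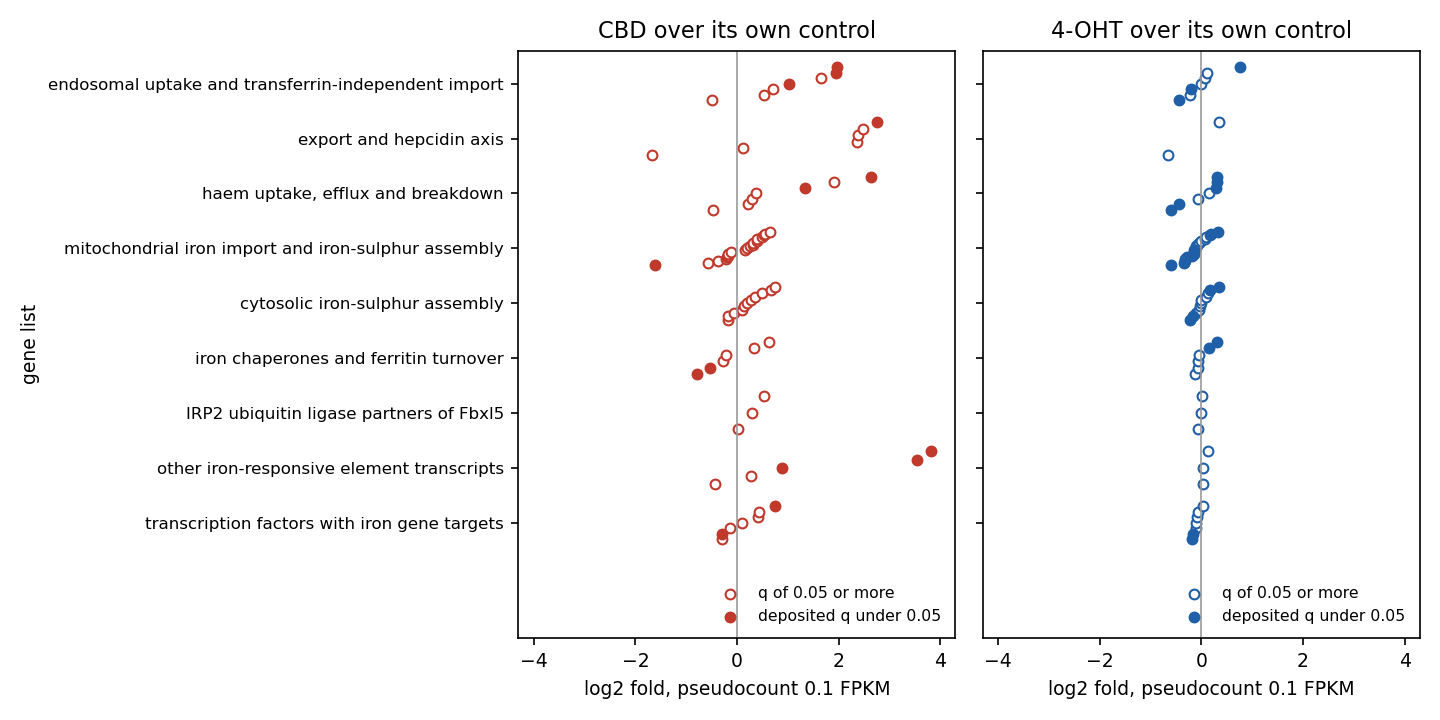
Log2 fold over the table's own control (pseudocount 0.1 FPKM) of the tested genes of 9 further iron lists, with CBD left and 4-OHT right, 1 point per gene, filled where the deposited q is under 0.05. The 4-OHT folds lie between −0.65 and 0.75, and the CBD folds reach 3.82.

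Over the 4 columns, the profiles most like that of Tfrc among 8989 tested genes were those of Mid1, Polq, Dlgap5, Clspn and Kif4, at Euclidean distances of 0.19 to 0.32 on the centred log2 scale. Mid1 stood at 0.619 FPKM with CBD against 2.87 FPKM in its control, and at 5.54 FPKM with 4-OHT against 5.95 FPKM in its control. Nearest to Slc40a1 were Nqo1, Acyp2, Pir, Fam120c and Gsta3, at distances of 0.51 to 0.59. Nqo1 stood at 53.2 FPKM with CBD against 17.6 FPKM in its control, and at 22.4 FPKM with 4-OHT against 44.4 FPKM in its control. With 4 points a profile, such likeness is a description only.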

How the data were processed

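RNA-seq of 6 samples was used as 2 tables of the authors' comparisons. Per the submitters' processing notes, Bowtie 0.12.2, Cuffdiff and mm9 were used; the version of Cuffdiff, its settings and the annotation were not stated. Each deposited FPKM value is the authors' 1 value per group, and per the labels' descriptions 1 control sample and 2 treated samples belong to each table. Deposited p-values and q-values are from the authors' Cuffdiff test; q-values recomputed by the Benjamini-Hochberg method over tested genes differed by at most 1.52e-06. No test was added. Log2 folds are treated over control with 0.1 FPKM added to each. The length trend is the median log2 fold in 20 bins of the longest GENCODE vM21 transcript, a later build than mm9; 89.3% of genes had a length, all 10 genes included, and the step was tested on simulated data. Gene positions are in mm9 with 1 added to each start. Python 3.11.15, pandas 2.3.3 and numpy 2.4.6 were used. Named beyond the 10 were, per list and comparison, the 3 called genes with the largest fold and a mean of 1 FPKM or more, and the 5 nearest profiles; exceptions are marked, and 1 gene the rule names is not reported here. The genes and lists were chosen with earlier results of these data known. Markers are 6 lists of blood, brain, macrophage and erythroid genes; the blood list summed to 405 FPKM with CBD, 367 in its control, 271 with 4-OHT and 289 in its control. Alternatives were other pseudocounts, q thresholds, scalings, control columns and minimum levels.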

Additional observations from a re-analysis of the deposited data

How the results depend on the processing

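No paired analysis was possible because the tables hold 1 value per group; leaving out a replicate was not run for the same reason. Pseudocounts of 0.01 and 1 turned no direction among the folds and ratios of the 10 genes; the calls do not use a pseudocount. Scaling turned some small folds that were not called. With 4-OHT, Tfrc went below 0 when centred on the median gene or scaled by upper quartile (−0.012 each) or to the same sum (−0.027). Scaled to the same sum, Aco1 with 4-OHT (−0.0080) and Fbxl5 with CBD (−0.10) also went below 0. Of the 10 genes, at q under 0.01 the authors' deposited table calls 2 with CBD. Outside the range of the control columns, an alternative chosen after the data were seen, lay 10 with CBD. As shares of the column sum, Slc40a1 and Fth1 with CBD lay inside that range. At least 1.5-fold were 2 of the 6 4-OHT calls, and 1 of the 6 was on the same side of the other control column. Of the other iron genes, 9 with CBD and 17 with 4-OHT pass at q under 0.01, and 9 CBD calls reach 1 FPKM in each control column. Of their 26 4-OHT calls 3 reach 1.5-fold and 8 lie on the same side of the other control column. Shares of all tested genes at q under 0.01, at 1.5-fold and at 1 FPKM are not given here. Whether the counts at these settings differ from those shares cannot be told. Over that column the 4-OHT log2 folds turn round for Slc40a1 (0.60), Fth1 (0.081), Ftl1 (0.029), Slc11a2 (0.036) and Ncoa4 (−0.30), and with the length trend removed those of Fth1 (−0.051), Ftl1 (−0.074) and Slc11a2 (−0.040) turn once more. The difference in the log2 ratio of Tfrc to Ftl1, CBD minus control, is −4.42 with the length trend removed. For Tfrc to Slc40a1 the difference over the other control column is −3.17 with CBD and 0.25 with 4-OHT. The cause was not tested. The depth is unknown, so which differences it limits cannot be given.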
